A study of Rattus norvegicus with 12 samples.

Results

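The 8 genes described here encode muscarinic and nicotinic acetylcholine receptors or their subunits, and they were chosen by name from the deposited table of 22431 rat genes. They are the muscarinic receptor genes Chrm1, Chrm2, Chrm3 and Chrm4 and the nicotinic subunit genes Chrna4, Chrna5, Chrna7 and Chrnb2. All 8 were found, and 7 of them were among the 14170 genes tested, which had a mean of at least 0.5 FPKM (a length-scaled level) over the 12 libraries. Chrna7, with a mean of 0.451 FPKM, was below that level. RNA came from the prefrontal cortex of rat offspring labelled WT, in early adolescence, with 1 library per animal and 4 libraries in each of 3 groups. The groups were offspring labelled postnatal oxycodone (PNO), offspring labelled in utero oxycodone (IUO) and saline controls. Oxycodone is an opioid agonist and was given by oral gavage at 15 mg/kg, with windows described as before pregnancy or after it. Postnatal day 21 is recorded as the last day of dosing for the PNO and the IUO libraries alike. Neither the strain nor which window belongs to which group is given in the sources used here. The animals of a group were born to 2 dams, with 2 taken from each, and cannot be matched to their dams, so p-values that count every animal as independent may be too low.

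Acetylcholine reaches the prefrontal cortex mainly from axons of basal forebrain neurons and is known for its part in attention and arousal. Muscarinic receptors are G protein-coupled: those encoded by Chrm1 and Chrm3 act through Gq and phospholipase C, and those encoded by Chrm2 and Chrm4 through Gi/o and inhibition of adenylate cyclase. Nicotinic receptors are cation channels assembled from subunits around a pore. The subunits encoded by Chrna4 and Chrnb2 form the main high-affinity nicotine binding site of the brain, the subunit encoded by Chrna5 joins them as an accessory subunit, and the subunit encoded by Chrna7 forms channels of its own with high calcium permeability.

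No receptor gene passed the threshold of an adjusted p under 0.05 in any of the 3 comparisons. The largest difference was in Chrnb2, which averaged 28.6 ± 3.00 CPM (counts scaled to the library total) in PNO, 21.3 ± 8.67 CPM in IUO and 16.3 ± 1.3 CPM in saline (SD, n = 4 each). It was higher in every PNO library than in every saline library. Chrm4 and Chrm2 had higher means in PNO than in saline, with overlapping libraries, and Chrm3 and Chrna4 had nearly the same mean in all 3 groups. Chrm1 varied more among the saline animals than between the groups.

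Libraries held 49227533 to 60672246 counts, and among the receptor genes only Chrna7 was read from few of them. Slc17a7, the vesicular glutamate transporter of cortical excitatory neurons, measured 1340 to 2435 CPM, and all 7 excitatory neuron markers were detected in every library. Markers of regions next to the dissected cortex differed between libraries of one group. Striatal genes (13, as mean log2 CPM) were raised in 4 libraries, PNO 2 with 6.29, IUO 2 with 5.72, IUO 1 with 4.52 and saline 2 with 4.48, against 2.93 to 3.35 elsewhere. Olfactory bulb genes (9, on the same scale) were raised in PNO 4 with 4.47, PNO 1 with 4.28, PNO 3 with 4.18 and IUO 3 with 4.78, against 1.77 to 2.34 elsewhere. Every PNO library was thus raised in one list or the other. IUO 4 stood apart in another way. Its 7 excitatory neuron markers summed to 2071 CPM, against 2756 to 3762 CPM in the other 11 libraries. By mean log2 CPM these markers were also lowest in IUO 4, at 6.822 against 6.98 to 7.333 in the other 11. In bulk tissue, fewer cells of a type and less RNA per cell cannot be told apart.

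The receptor genes fell into a wide order of levels when compared per length in FPKM. Chrm1 was the highest of the 8 in all 12 libraries, at 58.2 ± 6.33 FPKM in PNO, 49.8 ± 9.27 FPKM in IUO and 54.0 ± 16.1 FPKM in saline (SD, n = 4 each). Chrm4 was second, at 17.2 ± 3.70 FPKM in PNO, 13.7 ± 2.69 FPKM in IUO and 12.7 ± 2.56 FPKM in saline. Chrna4, Chrm3 and Chrnb2 followed close together. In saline their levels were 8.70 ± 1.02 FPKM for Chrna4, 8.02 ± 0.567 FPKM for Chrm3 and 6.78 ± 0.523 FPKM for Chrnb2. Chrna4 and Chrm3 were not separated, since their ranges overlapped in every group. Chrnb2 held a different place in each group: it was the third of the 8 in PNO at 12.1 ± 1.13 FPKM, the fourth by mean in IUO at 8.98 ± 3.69 FPKM and the fifth in saline. In IUO it was above Chrna4 in 3 of 4 libraries, with IUO 4 the exception. Chrm2, Chrna5 and Chrna7 came last, in that order in all 12 libraries. Chrm2 had 2.06 ± 0.444 FPKM in PNO, 1.65 ± 0.251 FPKM in IUO and 1.62 ± 0.139 FPKM in saline. Chrna5 had 0.981 ± 0.145 FPKM in PNO, 0.988 ± 0.320 FPKM in IUO and 1.05 ± 0.240 FPKM in saline, and Chrna7 had 0.528 ± 0.243 FPKM in PNO, 0.514 ± 0.202 FPKM in IUO and 0.310 ± 0.141 FPKM in saline. Over the genes tested, the mean level of Chrm1 was at the percentile 92.6 and that of Chrna5 at the percentile 10.8. Among the 4 muscarinic genes, Chrm1 supplied 67.9% ± 4.30 of the summed FPKM in PNO, 67.3% ± 2.75 in IUO and 69.9% ± 5.31 in saline.

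**Figure D1:**
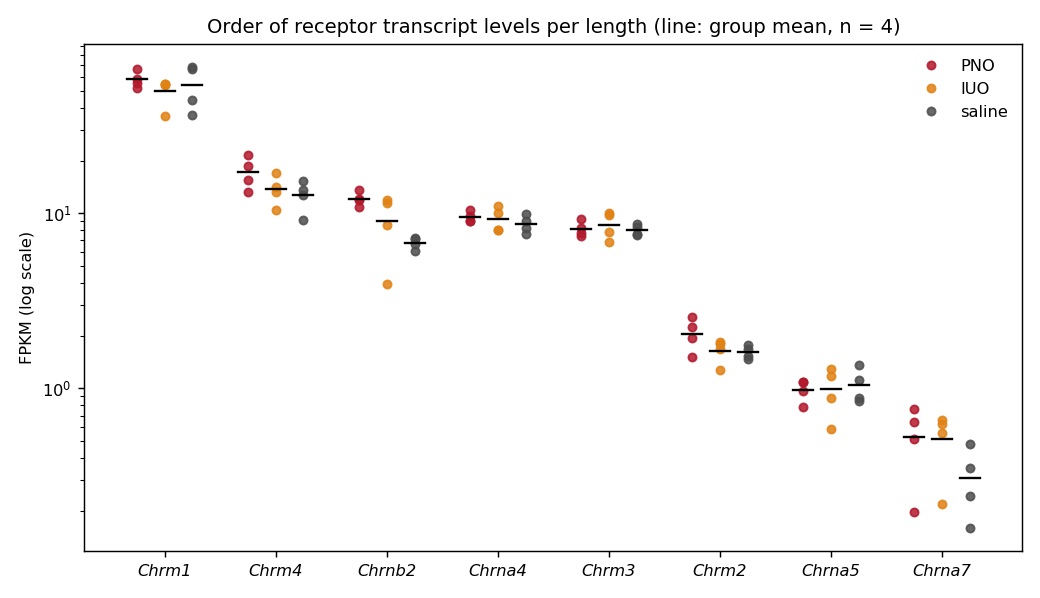
Deposited FPKM of the 8 receptor genes on a log scale, with genes ordered by their mean over 12 libraries, 1 point per library and a line at each group mean (n = 4). Chrm1 lies above all others in every library, Chrm2, Chrna5 and Chrna7 lie below the other 5, and the PNO points of Chrnb2 lie above its saline points.

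The nicotinic pair Chrnb2 and Chrna4 is described first, because Chrnb2 had the smallest p of the 8. Chrnb2 (ENSRNOG00000020778) is a protein-coding gene given in the deposited table at chromosome 2, 175181402 to 175189619, minus strand, and Chrna4 (ENSRNOG00000011202) at chromosome 3, 168136266 to 168156957, minus strand. The build of these positions is not named in the labels or headers. The 250 bases before each gene's start are shown because the products of these genes assemble into one channel while of the pair only Chrnb2 had PNO libraries that did not overlap saline. The sequences are RefSeq's on GRCr8, at chr2:177487307-177487556 for Chrnb2 and chr3:188534527-188534776 for Chrna4, both on the minus strand and written 5′ to 3′ in the direction of the gene. Capitals mark GC boxes, the letters GGGCGG on either strand.
Chrnb2: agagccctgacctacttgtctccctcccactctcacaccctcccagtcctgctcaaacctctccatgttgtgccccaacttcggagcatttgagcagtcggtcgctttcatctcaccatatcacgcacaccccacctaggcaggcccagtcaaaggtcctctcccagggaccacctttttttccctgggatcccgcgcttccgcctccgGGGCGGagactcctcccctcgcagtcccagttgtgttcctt
Chrna4: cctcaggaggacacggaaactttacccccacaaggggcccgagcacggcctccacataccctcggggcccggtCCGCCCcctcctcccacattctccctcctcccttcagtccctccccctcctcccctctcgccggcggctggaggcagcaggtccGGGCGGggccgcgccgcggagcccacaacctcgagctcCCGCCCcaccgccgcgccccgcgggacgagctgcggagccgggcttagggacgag
The window of Chrnb2 held 1 GC box, whose 5′ end lay 41 bases before the start, and had 59.6% G and C and 10 CpG pairs. The window of Chrna4 held 3, with 74.4% G and C and 26 CpG pairs. A GC box stood in 30.5% of the 33469 promoter windows of the same length, and the median window had 51.2% G and C. A match is a description of the letters and not a binding site.

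Chrnb2 measured 25.2, 32.5, 28.8 and 28.1 CPM in PNO 1 to 4, against 16.8, 15.7, 14.9 and 17.9 CPM in saline 1 to 4. In IUO 1 to 4 it measured 27.1, 28.4, 20.2 and 9.44 CPM. The lowest PNO library lay above the highest saline library, whereas the IUO group held 3 libraries above every saline library and 1, IUO 4, below all of them. The log2 fold change of PNO over saline was 0.81 (SE 0.25), a 1.75-fold difference, with an unadjusted p of 0.00641 and an adjusted p of 0.337 in edgeR's quasi-likelihood test, so it did not pass. Of all genes tested, 9.84% had PNO and saline libraries that did not overlap, 5.17% with PNO above, and 11.0% had an unadjusted p under 0.05. Chrnb2 was the 1 of the 7 receptor genes tested that met each of these. IUO over saline gave a log2 fold change of 0.38 (SE 0.25, adjusted p = 0.998), and IUO over PNO gave -0.43 (SE 0.25, adjusted p = 0.719).

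The groups share 1 estimate of the spread in the fit, and the SE was smaller when IUO 4 was left out. Without IUO 4, PNO over saline kept a log2 fold change of 0.81 with an SE of 0.12 and an adjusted p of 0.0311, and in a fit of the PNO and saline libraries alone it was 0.80 (SE 0.11, adjusted p = 0.0433). Over all alternative settings the adjusted p ranged from 0.0311 to 0.998, and DESeq2 gave 0.0774. The IUO values moved with single libraries. IUO over saline was 0.63 (SE 0.13) without IUO 4, 0.24 (SE 0.26) without IUO 1 and 0.21 (SE 0.25) without IUO 2. IUO over PNO was -0.18 (SE 0.13) without IUO 4. Bulb markers were raised in 3 of 4 PNO libraries, 1 of 4 IUO libraries and 0 of 4 saline libraries. Without the 4 libraries with raised striatal markers, PNO over saline was 0.72 (SE 0.23), IUO over saline -0.16 (SE 0.26) and IUO over PNO -0.88 (SE 0.27). Without the 4 libraries with raised olfactory bulb markers, which leaves PNO 2 alone in its group and assumes that it varies like the others, PNO over saline was 0.97 (SE 0.43). With both marker levels as covariates it was 0.05 (SE 0.36, adjusted p = 0.998), and IUO over PNO was -0.19 (SE 0.24). Every PNO library was raised in either the striatal or the bulb list, but only saline 2 of the saline libraries was. Exposure and these markers therefore cannot be told apart in the fit with covariates. Other marker lists also differed between these libraries. The 8 cortical interneuron genes with a row had a mean log2 CPM of 4.97 to 5.29 in PNO and 4.65 to 4.85 in saline. IUO 1 to 3 had 5.05 to 5.20 and IUO 4 had 4.71. On this scale the 7 libraries in which Chrnb2 exceeded every saline library also exceeded every saline library in this list. By summed CPM IUO 4 exceeded them too, with 716.71 CPM against 510.9 to 650.35 CPM in saline. Of the 7 interneuron genes tested, 4 were positive and 3 negative in PNO over saline. By mean log2 CPM, microglial genes (6) had 4.73 to 4.84 in PNO, 4.74 to 5.27 in IUO and 4.88 to 5.30 in saline. Astrocyte genes (6) had 7.86 to 7.94 in PNO, 7.87 to 8.11 in IUO and 7.99 to 8.25 in saline. On this scale both were lower in every PNO library than in every saline library. By summed CPM both overlapped, with microglial genes at 210.3 to 227.86 in PNO and 222.34 to 283.72 in saline. Astrocyte genes summed to 2142.9 to 2323.5 CPM in PNO and 2214.7 to 2721.6 CPM in saline. The part of these 3 lists in the Chrnb2 values was not tested.

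Chrna4 measured 44.5, 45.7, 52.8 and 48.6 CPM in PNO 1 to 4, against 37.9, 49.7, 46.9 and 43.3 CPM in saline 1 to 4. The values in IUO 1 to 4 were 55.1, 50.4, 40.4 and 40.7 CPM. The 3 groups overlapped, and PNO over saline was 0.11 (SE 0.12, adjusted p = 0.747) on the log2 scale, IUO over saline 0.07 (SE 0.12, adjusted p = 0.998) and IUO over PNO -0.04 (SE 0.12, adjusted p = 0.945). The ratio of Chrnb2 to Chrna4, each in FPKM, was 1.27 ± 0.158 in PNO, 0.947 ± 0.311 in IUO and 0.791 ± 0.138 in saline (SD, n = 4 each). The lowest ratio of a PNO library, 1.16, was above the highest of a saline library, 0.940. IUO 1 to 3, with ratios of 1.04, 1.19 and 1.06, were also above it, and IUO 4 had 0.492. This ratio was formed after the values of both genes were seen and was given no test.

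Chrna5 (ENSRNOG00000013610, chromosome 8, 55369794 to 55398146, plus strand) is known from rodents as a subunit of the deepest cortical layer. It measured 3.47, 3.56, 2.57 and 3.14 CPM in PNO 1 to 4, against 3.62, 4.41, 2.85 and 2.98 CPM in saline 1 to 4. In IUO 1 to 4 it measured 4.17, 3.87, 2.87 and 1.93 CPM. The groups overlapped, with log2 fold changes of -0.12 (SE 0.24, adjusted p = 0.873) for PNO over saline, -0.11 (SE 0.24, adjusted p = 0.998) for IUO over saline and 0.01 (SE 0.24, adjusted p = 0.993) for IUO over PNO. Its level was 7.31% to 14.8% of that of Chrna4, both in FPKM, over the 12 libraries. The 3 highest libraries, saline 2, IUO 1 and IUO 2, were among the 4 with raised striatal markers, in which Chrna5 measured 3.56 to 4.41 CPM, against 1.93 to 3.62 CPM in the other 8. Genes of the deep cortical layers (10) had a mean log2 CPM of 3.965 to 4.289 in these 4, against 3.432 to 4.036 in the other 8. Oligodendrocyte genes (6) had 9.308 to 9.705 in them, against 8.352 to 8.811 in the other 8. The part of the deep-layer and oligodendrocyte genes in the Chrna5 values was not tested. Without these 4 libraries PNO over saline was -0.042 (SE 0.24). IUO over saline, with IUO 3 and IUO 4 left in the IUO group, was -0.39 (SE 0.27). With both marker levels as covariates PNO over saline was -0.68 (SE 0.35) and IUO over saline -0.47 (SE 0.25). Their unadjusted p in edgeR's quasi-likelihood test were 0.0715 and 0.0815. For PNO, exposure and the striatal and bulb markers cannot be told apart in this fit.

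Chrna7 (ENSRNOG00000010853, chromosome 1, 116714711 to 116837240, minus strand) was sparse, with 24 to 109 counts per library. It had 109, 74, 29 and 94 counts in PNO 1 to 4, against 36, 51, 72 and 24 in saline 1 to 4. The values in IUO 1 to 4 were 96, 68, 92 and 30 counts. PNO and IUO each held 1 low library, PNO 3 and IUO 4, and both overlapped saline. Since it was below the level asked for, it was tested only in the fit of all 22431 genes, where PNO over saline was 0.71 (SE 0.45, adjusted p = 0.614), IUO over saline 0.68 (SE 0.45, adjusted p = 0.946) and IUO over PNO -0.03 (SE 0.45, adjusted p = 1.00).

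**Figure D2:**
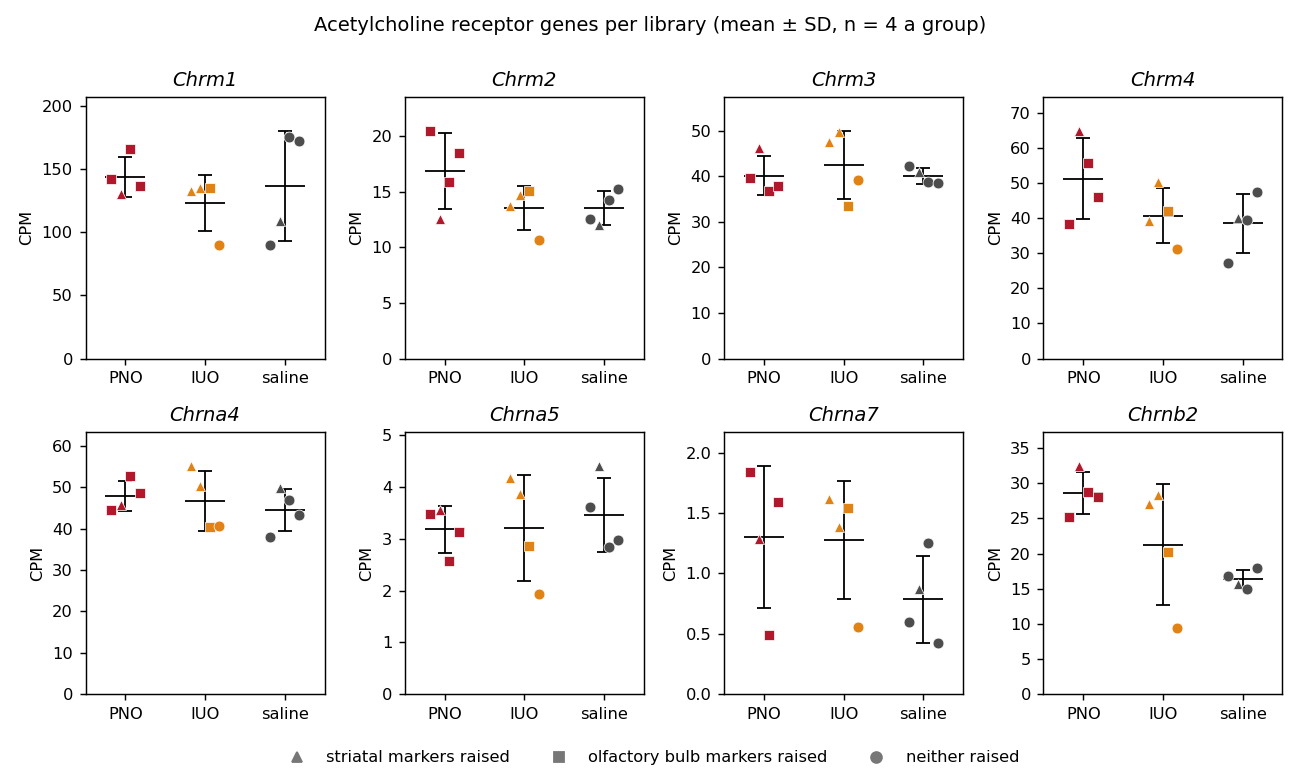
CPM of each receptor gene in each library, in panels by gene and columns by group, with the mean and SD (n = 4). Triangles are libraries with raised striatal markers, squares those with raised olfactory bulb markers and circles the rest. The PNO points of Chrnb2 lie at 25.2 to 32.5 CPM above the saline points at 14.9 to 17.9 CPM, and the groups overlap for the other 7 genes.

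Among the muscarinic genes, Chrm4 had the smallest p. Chrm4 (ENSRNOG00000017556, chromosome 3, 77893425 to 77901159, plus strand) encodes the M4 receptor, which is known to be abundant in striatal projection neurons as well as present in cortex. Its last bases meet the end of Mdk on the opposite strand, and it is not stated whether counting used strand. The RefSeq window before its start, chr3:98348830-98349079 on the plus strand of GRCr8, is shown as that of the muscarinic gene with the largest difference, with GC boxes in capitals.
Chrm4: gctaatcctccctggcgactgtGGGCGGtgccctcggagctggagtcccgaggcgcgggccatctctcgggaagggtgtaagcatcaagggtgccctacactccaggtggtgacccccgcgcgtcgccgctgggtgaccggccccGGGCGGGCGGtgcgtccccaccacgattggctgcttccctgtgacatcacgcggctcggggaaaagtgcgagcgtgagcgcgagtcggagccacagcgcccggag
It held 3 GC boxes, of which a pair overlaps. Of the 8 receptor genes, 7 had at least 1 GC box in the 250 bases before the start, and only Chrm1 had none. Among all windows of this length, 30.5% held a GC box. The 8 receptor windows had 58.8% to 74.4% G and C, against a median of 51.2%, and the count was not adjusted for this.

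Chrm4 measured 38.4, 64.8, 55.8 and 45.8 CPM in PNO 1 to 4, against 27.1, 40.1, 39.3 and 47.4 CPM in saline 1 to 4. In IUO 1 to 4 it measured 39.1, 50.4, 41.9 and 31.2 CPM. PNO 2 and PNO 3 exceeded every saline library and the other PNO libraries lay within the saline range. PNO over saline was 0.41 (SE 0.19, unadjusted p = 0.0526, adjusted p = 0.459) in edgeR's quasi-likelihood test, IUO over saline 0.08 (SE 0.19, adjusted p = 0.998) and IUO over PNO -0.33 (SE 0.19, adjusted p = 0.719). PNO 2, the highest, was also the library with the highest striatal markers, and the dopamine receptor gene Drd2 measured 75.8 CPM there, against 3.98 to 49.9 CPM elsewhere. PNO 3, the second highest, had Drd2 at 5.22 CPM, and saline 4, the highest of its group, 4.92 CPM. Without the 4 libraries with raised striatal markers PNO over saline was 0.30 (SE 0.21). It was 0.74 (SE 0.29) without the 4 with raised bulb markers, which leaves PNO 2 alone in its group. With both marker levels as covariates it was 0.03 (SE 0.27), a fit in which exposure and these markers cannot be told apart.

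Chrm1 (ENSRNOG00000018385, chromosome 1, 205567220 to 205582356, plus strand), the gene of the main postsynaptic muscarinic receptor of cortical pyramidal neurons, measured 142, 130, 166 and 136 CPM in PNO 1 to 4. It measured 132, 135, 135 and 89.9 CPM in IUO 1 to 4, and 89.7, 109, 175 and 172 CPM in saline 1 to 4. The saline group alone held both the lowest and the highest of the 12 values. PNO over saline was 0.08 (SE 0.20, adjusted p = 0.916), IUO over saline -0.15 (SE 0.20, adjusted p = 0.998) and IUO over PNO -0.22 (SE 0.20, adjusted p = 0.776). With 1 library left out at a time, IUO over saline ran from -0.30 without saline 1 to -0.0058 without saline 3, and IUO over PNO from -0.27 without IUO 2 to -0.10 without IUO 4. The libraries low in Chrm1 were low in summed excitatory neuron markers. These summed to 2071 CPM in IUO 4, 2875 CPM in saline 1 and 2756 CPM in saline 2, the 3 lowest sums of the 12. The sums were 3762 and 3719 CPM in saline 3 and saline 4. By mean log2 CPM, the scale used for the other lists, IUO 4 was again lowest at 6.822. On that scale PNO 2, with Chrm1 at 130 CPM, came next at 6.98, below saline 2 at 6.987 and saline 1 at 6.99. The part of these markers in the spread of Chrm1 was not tested.

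Chrm2 (ENSRNOG00000046972, chromosome 4, 65014144 to 65149103, plus strand) encodes the M2 receptor, known as an autoreceptor on cholinergic terminals. Its gene body contains the microRNA gene Mir490 on the same strand. It measured 20.5, 12.5, 15.9 and 18.5 CPM in PNO 1 to 4, against 12.6, 12.04, 14.3 and 15.3 CPM in saline 1 to 4. The values in IUO 1 to 4 were 13.7, 14.7, 15.0 and 10.7 CPM. PNO 1, PNO 3 and PNO 4 exceeded every saline library, and PNO 2 lay within the saline range. PNO over saline was 0.32 (SE 0.16, adjusted p = 0.495), IUO over saline -0.00 (SE 0.16, adjusted p = 1.00) and IUO over PNO -0.32 (SE 0.16, adjusted p = 0.714). The 3 high PNO libraries were those with raised bulb markers, and the 4 libraries with raised bulb markers held Chrm2 at 15.0 to 20.5 CPM, against 10.7 to 15.3 CPM in the other 8. Without those 4 libraries PNO over saline turned to -0.13 (SE 0.23), which rests on PNO 2 alone. It was 0.38 (SE 0.17) without the 4 libraries with raised striatal markers and 0.20 (SE 0.16) without PNO 1. With both marker levels as covariates it was 0.011 (SE 0.25), a fit in which exposure and these markers cannot be told apart.

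Chrm3 (ENSRNOG00000049410, chromosome 17, 60005202 to 60467278, plus strand), which encodes the M3 receptor, measured 39.5, 46.2, 36.7 and 37.8 CPM in PNO 1 to 4, against 42.2, 40.9, 38.6 and 38.4 CPM in saline 1 to 4. In IUO 1 to 4 it measured 47.5, 49.7, 33.4 and 39.1 CPM. PNO over saline was 0.00 (SE 0.12, adjusted p = 0.999), IUO over saline 0.08 (SE 0.12, adjusted p = 0.998) and IUO over PNO 0.08 (SE 0.12, adjusted p = 0.871). Its 3 highest libraries, IUO 2, IUO 1 and PNO 2, were again libraries with raised striatal markers, in which it measured 40.9 to 49.7 CPM, against 33.4 to 42.2 CPM in the other 8. Without those 4 libraries IUO over saline turned to -0.13, with IUO 3 and IUO 4 left in the IUO group. The same 4 libraries were the highest in oligodendrocyte genes (6), at a mean log2 CPM of 9.308 to 9.705. The other 8 had 8.352 to 8.811, and the part of these genes in the Chrm3 values was not tested.

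**Figure D3:**
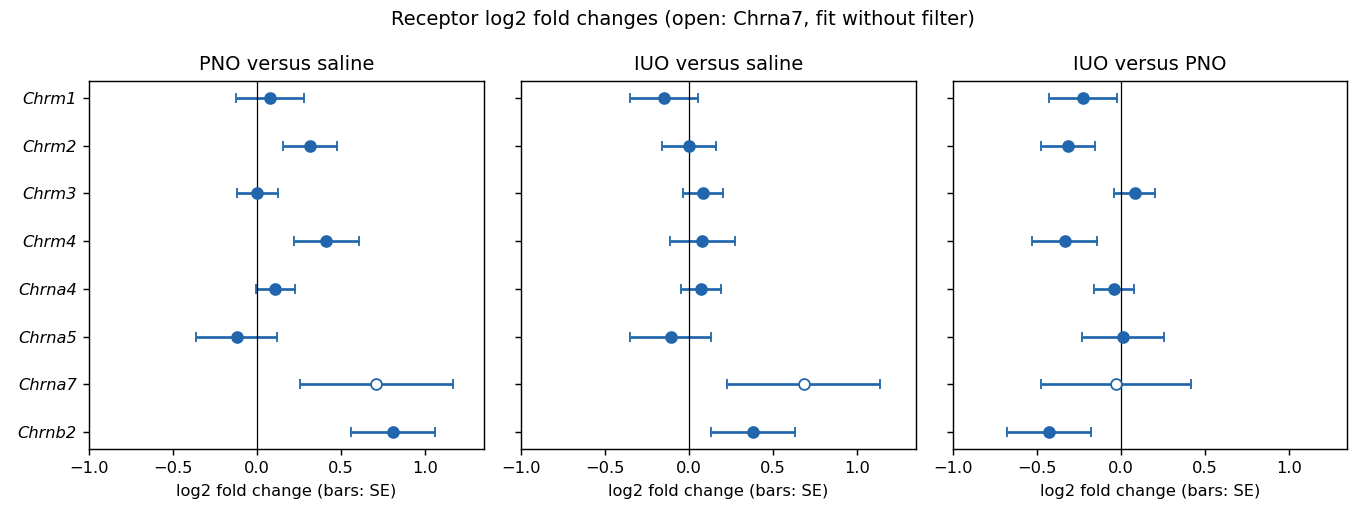
Log2 fold changes of the 8 receptor genes in the 3 comparisons with their SE. Filled points come from the fit of the 14170 genes tested and the open point of Chrna7 from the fit of all 22431 genes. Chrnb2 has the largest value of PNO over saline at 0.81, and none of the 8 passed the threshold in any panel.

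Across the 7 receptor genes tested, PNO over saline was positive in 6 and negative in 1, with a median of 0.11, against a median of 0.01 over all genes tested. IUO over saline was positive in 4 and negative in 3, with a median of 0.07 against 0.02. IUO over PNO was positive in 2 and negative in 5, with a median of -0.22 against 0.00. The first 2 comparisons share the saline libraries, and the last shares libraries with both. At an unadjusted p under 0.05, IUO over saline gave 0 of the 7, where 4.02% of all genes met this, and IUO over PNO gave 0 of the 7, where 6.73% did. The groups also overlapped for each of the 7 in both comparisons, where 2.18% of all genes did not overlap in IUO against saline and 3.63% did not in IUO against PNO. By adjusted p, edgeR called 0 of all 14170 genes in each comparison (0% of genes), with 1564, 570 and 953 genes at an unadjusted p under 0.05, while DESeq2 called 117 for PNO over saline, 11 for IUO over saline and 8 for IUO over PNO, none of them a receptor gene.

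**Figure D4:**
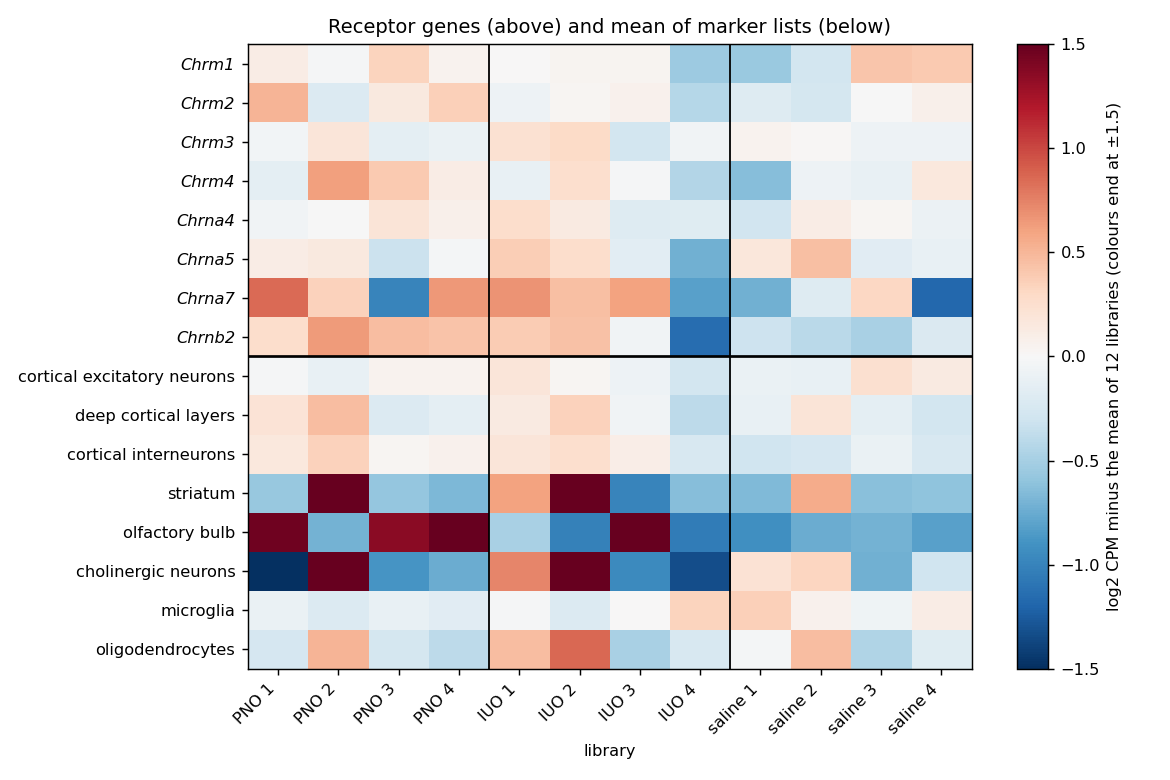
Log2 CPM of the 8 receptor genes (above the line) and the mean log2 CPM of 8 marker lists (below it) in each of the 12 libraries, as the difference from the mean of the 12, with colours ending at ±1.5. Chrnb2 is above its mean in the 4 PNO libraries and in IUO 1 and IUO 2 and lowest in IUO 4, while the striatal and olfactory bulb rows mark different libraries of the same group.

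The other genes of the cholinergic pathway showed 0 calls in either direction. Of 13 other receptor subunits, 10 had a row and 2 were tested, Chrna2 and Chrna3. Chrna3, the subunit gene beside Chrna5 and known mainly from peripheral ganglia and the medial habenula, averaged 2.43 ± 0.447 CPM in PNO, 2.47 ± 0.605 CPM in IUO and 1.64 ± 0.439 CPM in saline (SD, n = 4 each). PNO over saline was 0.56 (SE 0.24, adjusted p = 0.431) and IUO over saline 0.59 (SE 0.24, adjusted p = 0.998), with unadjusted p of 0.0346 and 0.0292. The subunit genes of the muscle receptor that had rows, Chrna1, Chrnb1 and Chrne, were below the level tested, as were Chrna6, Chrna10, Chrnb3, Chrnb4 and Chrm5.

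Genes of acetylcholine synthesis and uptake were low. The 5 cholinergic neuron markers with a row summed to 1.33 to 22.1 CPM in PNO, 2.17 to 14.8 CPM in IUO and 2.61 to 4.13 CPM in saline. Chat, which encodes the enzyme that makes acetylcholine and whose row the deposited table types as a pseudogene, measured 0.270, 5.57, 0.956 and 1.07 CPM in PNO 1 to 4. It measured 1.82, 2.95, 0.537 and 0.902 CPM in IUO 1 to 4, and 1.43, 0.868, 1.22 and 0.565 CPM in saline 1 to 4. The choline transporter gene Slc5a7 measured 0.688 to 6.02 CPM in PNO, 1.38 to 4.44 CPM in IUO and 1.5 to 2.4 CPM in saline. Both were highest in PNO 2 and second in IUO 2, the libraries with the highest striatal markers, a region that contains cholinergic interneurons. Ache, the gene of acetylcholinesterase, was well expressed and averaged 47.5 ± 5.28 CPM in PNO, 46.6 ± 8.11 CPM in IUO and 46.7 ± 8.23 CPM in saline. PNO over saline was 0.02 (SE 0.15, adjusted p = 0.966) for Ache. Slc18a3, the vesicular acetylcholine transporter gene, had no row under that name and was not analysed. Of the 7 genes of this list 6 had a row and 3 were tested, Ache, Colq and Prima1, and each had an adjusted p above the threshold.

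All 12 genes of nicotinic receptor chaperones and Ly6 proteins were tested and 0 passed. They include Tmem35a and Ric3, which help nicotinic receptors assemble, and Lynx1, a Ly6 protein that dampens them. These 3 are named for their roles, and PNO over saline was -0.08 for Tmem35a, 0.20 for Ric3 and 0.08 for Lynx1 on the log2 scale. Ly6g6e, another member of the Ly6 family, measured 2.39, 0.399, 3.72 and 1.61 CPM in PNO 1 to 4. It measured 0.589, 0, 7.03 and 0.276 CPM in IUO 1 to 4, and 0, 0.255, 0.0868 and 0.141 CPM in saline 1 to 4. It was high in PNO 1, PNO 3, PNO 4 and IUO 3, the 4 libraries with raised olfactory bulb markers, and at most 0.589 CPM in the other 8. Its unadjusted p was 0.0102 for PNO over saline and 0.0107 for IUO over saline, with adjusted p of 0.355 and 0.998. Of 20 genes of muscarinic transduction, 18 were tested and 0 passed, with 11 positive and 7 negative log2 fold changes in PNO over saline and a median of 0.04.

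**Figure D5:**
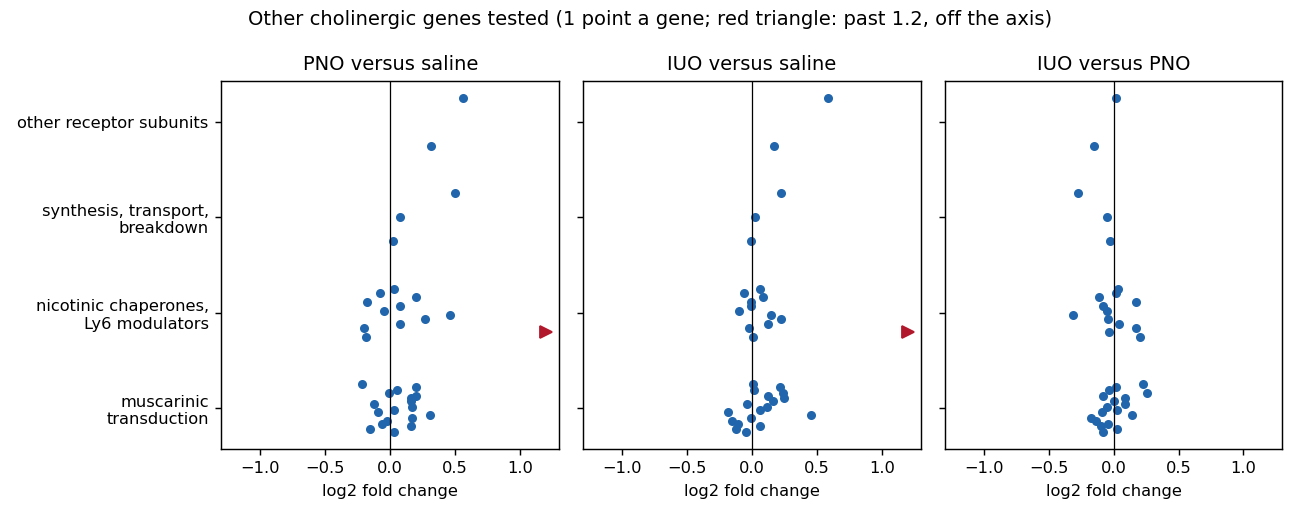
Log2 fold changes of the other cholinergic genes tested, by list, in the 3 comparisons, 1 point per gene. The red triangle is Ly6g6e, whose values of 4.06 and 4.02 over saline lie off the axis; the other points lie between -0.31 and 0.59.

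For each receptor gene the 3 tested genes with the most similar pattern over the 12 libraries were taken by Pearson's r of log2 CPM, as a description. For Chrnb2 these were Zzef1 (r = 0.977), Cnnm1 (r = 0.975) and Clcn6 (r = 0.974). Cnnm1 averaged 70.3 ± 7.59 CPM in PNO, 54.5 ± 16.5 CPM in IUO and 45.7 ± 5.29 CPM in saline (SD, n = 4 each), with PNO over saline at 0.62 (SE 0.19, adjusted p = 0.334). For Chrm1 they included Prep and Unc5a (r = 0.971 for each). For Chrm4 they were Atg4b, Inpp5e and Ppp2r5d (r = 0.945, 0.940 and 0.931). For Chrm2 they were Robo2, Galntl6 and AC125757.1 (r = 0.926, 0.906 and 0.896), and for Chrm3 Lpar1, Serinc5 and Eml1 (r = 0.949, 0.937 and 0.930). For Chrna5 they were Rab23, Dtna and Hs3st4 (r = 0.922, 0.915 and 0.901), and for Chrna7 Lats1, Stxbp5l and Cdk13 (r = 0.944, 0.929 and 0.914). Chrna4 had the weakest neighbours, Ptk7, Pgap4 and Eml2 (r = 0.844, 0.838 and 0.837). All r were taken over the same 12 libraries and are the highest of 14169 genes or, for Chrna7, 14170, so they carry no test.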

How the data were processed

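Poly(A) RNA libraries were stranded, per the labels' protocols, and HISAT2 and StringTie are named in the submitters' processing notes, with neither versions nor build and annotation stated there. The deposited table holds whole-number read counts per gene, and the authors' FPKM values beside them, for all 12 libraries. CPM was computed here from the counts, with each library's total over the tested genes multiplied by its TMM scaling factor. Genes with a mean of at least 0.5 FPKM (14170 of 22431) were tested with edgeR 4.0.16 in R 4.3.3: TMM scaling, the quasi-likelihood test, 3 groups in 1 fit, two-sided, with Benjamini-Hochberg adjustment over all genes tested and a threshold of 0.05. Log2 CPM used a prior count of 2. The fit was tested on simulated data. Alternatives used DESeq2 1.42.0 and limma 3.58.1 on log2(FPKM + 0.5), among others. Promoter windows came from RefSeq on GRCr8, and figures were drawn with Python 3.11.15 and matplotlib 3.10.9.

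The receptor genes, pathway lists and marker lists were chosen with earlier results of these data known. Named were all 8 receptor genes, pathway genes with an unadjusted p under 0.05 in any comparison, Chat, Slc5a7 and Ache, and the 3 genes most similar to each receptor gene, of which 1 is not reported here. Others were named for their role or as markers. Replicates are separate animals.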

Additional observations from a re-analysis of the deposited data

Results flagged for a closer look

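Of the 24 groups of 4 libraries looked at, 8 receptor genes in 3 groups, 1 held a library far from the others. Chrm1 in IUO 4 measured 89.9 CPM, while the other IUO libraries measured 132 to 135 CPM, and its gap to the nearest of them exceeded Dixon's critical value for 4 samples as a share of the group's range. Chance alone gives about 1 such group in 20. The summed excitatory neuron markers of IUO 4, at 2071 CPM, were the lowest of the 12 libraries. Their mean log2 CPM of 6.822 was also the lowest, and their part in the Chrm1 value was not tested.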

How the results depend on the processing

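Each receptor result was recomputed under up to 25 alternatives, and of 519 values 461 kept their direction and side of the threshold, 56 reversed and 2 passed it. Both that passed were Chrnb2 in PNO over saline, as given above. No reversed value had passed the threshold, and where its cause is not plain from fewer samples, the cause was not tested. DESeq2 called 117, 11 and 8 genes in PNO over saline, IUO over saline and IUO over PNO, with 12 genes left without an adjusted p in each. limma called 1 gene in PNO over saline with each of the 3 pseudocounts, and the fit of PNO and saline alone called 11, of which 1 was a receptor gene. Without the libraries with raised striatal markers, 4 genes were called in IUO over saline and 3 in IUO over PNO. Without those with raised bulb markers, the counts were 3, 1 and 3. Leaving out 1 library gave 0 to 19 genes and 0 to 1 receptor genes in PNO over saline, the most without IUO 4, 0 to 1 genes in IUO over saline and 0 to 1 in IUO over PNO.

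Without the libraries with raised striatal markers, PNO over saline was -0.064 for Chrm3, IUO over saline was -0.13 for Chrm3, -0.053 for Chrm4, -0.075 for Chrna4 and -0.16 for Chrnb2, and IUO over PNO was -0.067 for Chrm3 and -0.35 for Chrna5. Without those with raised bulb markers, PNO over saline was -0.082 for Chrm1, -0.13 for Chrm2 and 0.022 for Chrna5, and IUO over PNO was 0.058 for Chrm2, -0.025 for Chrm3, 0.092 for Chrna4 and -0.097 for Chrna5. With both marker levels as covariates, PNO over saline was -0.24 for Chrm1 and IUO over PNO was -0.0060 for Chrm3. In the same fit IUO over saline was -0.16 for Chrm4, -0.0039 for Chrna4 and -0.14 for Chrnb2. For PNO, exposure and these markers cannot be told apart in it.

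With limma and a pseudocount of 0.5, IUO over saline was 0.015 for Chrm2, and IUO over PNO was -0.015 for Chrna5. A pseudocount of 0.1 gave values in which IUO over saline was 0.016 for Chrm2, and IUO over PNO was -0.034 for Chrna5, and with a pseudocount of 1, IUO over saline was 0.013 for Chrm2, and IUO over PNO was -0.0072 for Chrna5. With median-of-ratios size factors PNO over saline was -0.0049 for Chrm3, with DESeq2 PNO over saline was -0.0049 for Chrm3, without a filter PNO over saline was -0.018 for Chrm3 and with the 2 groups alone PNO over saline was -0.0082 for Chrm3. Leaving out 1 library at a time also turned values near 0. PNO over saline ran from -0.081 to 0.22 for Chrm1, -0.075 to 0.030 for Chrm3 and -0.21 to 0.015 for Chrna5. IUO over saline ran from -0.056 to 0.097 for Chrm2, -0.00086 to 0.18 for Chrm3, -0.056 to 0.19 for Chrm4, -0.020 to 0.13 for Chrna4 and -0.26 to 0.070 for Chrna5. IUO over PNO ran from -0.0017 to 0.19 for Chrm3, -0.13 to 0.033 for Chrna4 and -0.14 to 0.19 for Chrna5.

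The replicate numbers were not taken to pair the samples, because this asked for a correlation of deviations over 0.1 in every same-numbered pair and 4 of 12 had one. All 12 correlations were positive, from 0.0153 to 0.411. Compared only with libraries of the other groups, 8 of 12 libraries correlated best with their own number. This comes from the data and not from the design, and pairing as its source was not tested. Of the pairs over 0.1, IUO 2 with PNO 2 (0.411) and PNO 2 with saline 2 (0.120) shared raised striatal markers. IUO 3 with PNO 3 (0.2385) shared raised bulb markers, and IUO 4 with saline 4 (0.142) had neither raised. The part of these markers in the correlations was not tested. The fit with the replicate block called 0 genes in each comparison, gave 0.80 for Chrnb2 in PNO over saline (adjusted p = 0.305), and reversed values near 0, in which PNO over saline was -0.0053 for Chrm3, IUO over saline was 0.0044 for Chrm2, and IUO over PNO was -0.024 for Chrna5. Depth limits only Chrna7, with 24 to 109 counts per library.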
